A study of Mus musculus with 30 samples.

Results

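The 10 genes described here are Ccr7, Ccl17, Ccl22, Cd83, Cacnb3, Cd40, Cd80, Cd86, Cd274 and Fscn1, a set of dendritic cell maturation and migration genes. They were chosen by symbol, through the Ensembl identifiers of the deposited count table, and all 10 were found among its 54532 genes. The cells were mouse dendritic cells grown from tibia and femur marrow in GM-CSF, under which marrow precursors become dendritic cells and macrophages. Cells of wild-type mice (WT) and of mice deficient in the mitochondrial NOD-like receptor Nlrx1 (KO) met viable conidia, the spores of the mould Aspergillus fumigatus (AF29). Each genotype was sampled unchallenged (0 h) and at 3, 6, 9 and 12 h of challenge, which gives 10 groups of 3 libraries. Every group after 0 h received conidia, so the effect of the fungus cannot be told apart from that of time in culture. The labels give no mouse strain, age or sex. Nor do they tie replicates to separate animals or cultures, and the tests therefore weigh differences against a spread that may be technical only.

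When a dendritic cell meets a microbe it matures. It takes up less antigen, shows more costimulatory ligands to T cells and moves to the draining lymph node. Ccr7 is the chemokine receptor that guides that movement, and its ligands Ccl19 and Ccl21 are made by lymph vessels and lymph node stroma. Fscn1 (fascin) bundles actin in the long processes of mature dendritic cells, and Cacnb3 encodes a beta subunit of voltage-gated calcium channels and is widely listed among mature dendritic cell transcripts. Ccl17 and Ccl22 are chemokines that attract T cells carrying Ccr4. Cd83 is a surface protein of mature dendritic cells that keeps MHC class II and Cd86 on the cell surface. Cd80 and Cd86 engage Cd28 on T cells, Cd40 receives the Cd40 ligand signal from helper T cells, and Cd274 (PD-L1) is the coinhibitory ligand of PD-1.

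Library totals lay between 1722384 and 3509429 counts (median 2492886). Nlrx1 itself had 5.26 to 14 CPM (counts scaled to library size) in the WT libraries and 0 to 5.68 CPM in the KO libraries, and over all times it was lower in KO by 1.87 ± 0.284 on the log2 scale (± standard error, adjusted p = 1.71e-05). At single times it was called lower at 0 and 9 h but not at 3, 6 or 12 h (at 12 h log2 -1.15 ± 0.598, adjusted p = 0.485). Residual Nlrx1 counts were thus present in KO libraries, up to 14 in one, and the deleted part of the gene is not given by the labels. Dendritic cell genes were present: Itgax averaged 1280 CPM, Irf4 108 CPM and Zbtb46 13.2 CPM, while Flt3 had a count in only 13 of 30 libraries and Cd209a in 7. Macrophage genes were high in the same libraries, with Apoe at 1010 CPM and Csf1r at 635 CPM on average. The summed level of the 13 macrophage markers fell from 3170 CPM (range 3100 to 3260) at 0 h to 2340 CPM (2310 to 2360) at 12 h in WT, and from 2320 (2210 to 2470) to 1930 (1820 to 2030) in KO. Of these 13, 6 were called lower and 2 higher at 12 h than at 0 h in WT (median log2 change -0.356, 18.1% of all genes called). In KO 5 were called lower and 3 higher (median 0.0138, 14.7% of all genes called). The summed level of the 14 conventional dendritic cell markers lay between 1910 and 2400 CPM in all libraries, a sum carried largely by Itgax and Sirpa (563 CPM on average). Neutrophil markers summed to 1120 to 1590 CPM in the WT groups and 825 to 1270 CPM in the KO groups, a sum carried largely by Mmp8 (731 CPM on average), while Ly6g, Retnlg, Elane and Mpo each averaged under 1 CPM. T or NK cell markers summed to at most 8.03 CPM and erythroid markers to at most 1.38 CPM in any library, and Trac, Hba-a2 and Hbb-bt had no count. In bulk RNA of such a mixture, fewer cells of a type and less RNA per cell cannot be told apart.

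The 10 genes covered a wide range of abundance. Per kilobase of exon, Ccl17 was the most abundant, with 667 ± 112 CPM per kilobase (mean ± SD, 30 libraries, range 511 to 898). Cd274 followed with 127 ± 19.5 (98.5 to 174) and Ccl22 with 91.8 ± 38.2 (36.6 to 193). The level of Ccl17 did not overlap with that of Cd274, whereas Cd274 and Ccl22 overlapped. Ccr7 (14.5 ± 7.34), Fscn1 (10.7 ± 5.24), Cd83 (8.26 ± 5.12) and Cacnb3 (7.04 ± 2.89) formed a middle group whose ranges overlapped one another. Cd80 (3.8 ± 1.28) and Cd86 (3.58 ± 1.29) did not differ beyond their spread, and Cd40 was the scarcest at 0.808 ± 0.827 CPM per kilobase. Cd40 had 0 to 34 counts per library and 217 in all. It reached 10 counts in the 6 libraries of 12 h and in a single KO library of 9 h with 13 counts, so it passed the count filter through the groups in which it was high. The other 9 genes had at least 11 counts in every library.

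**Figure D1:**
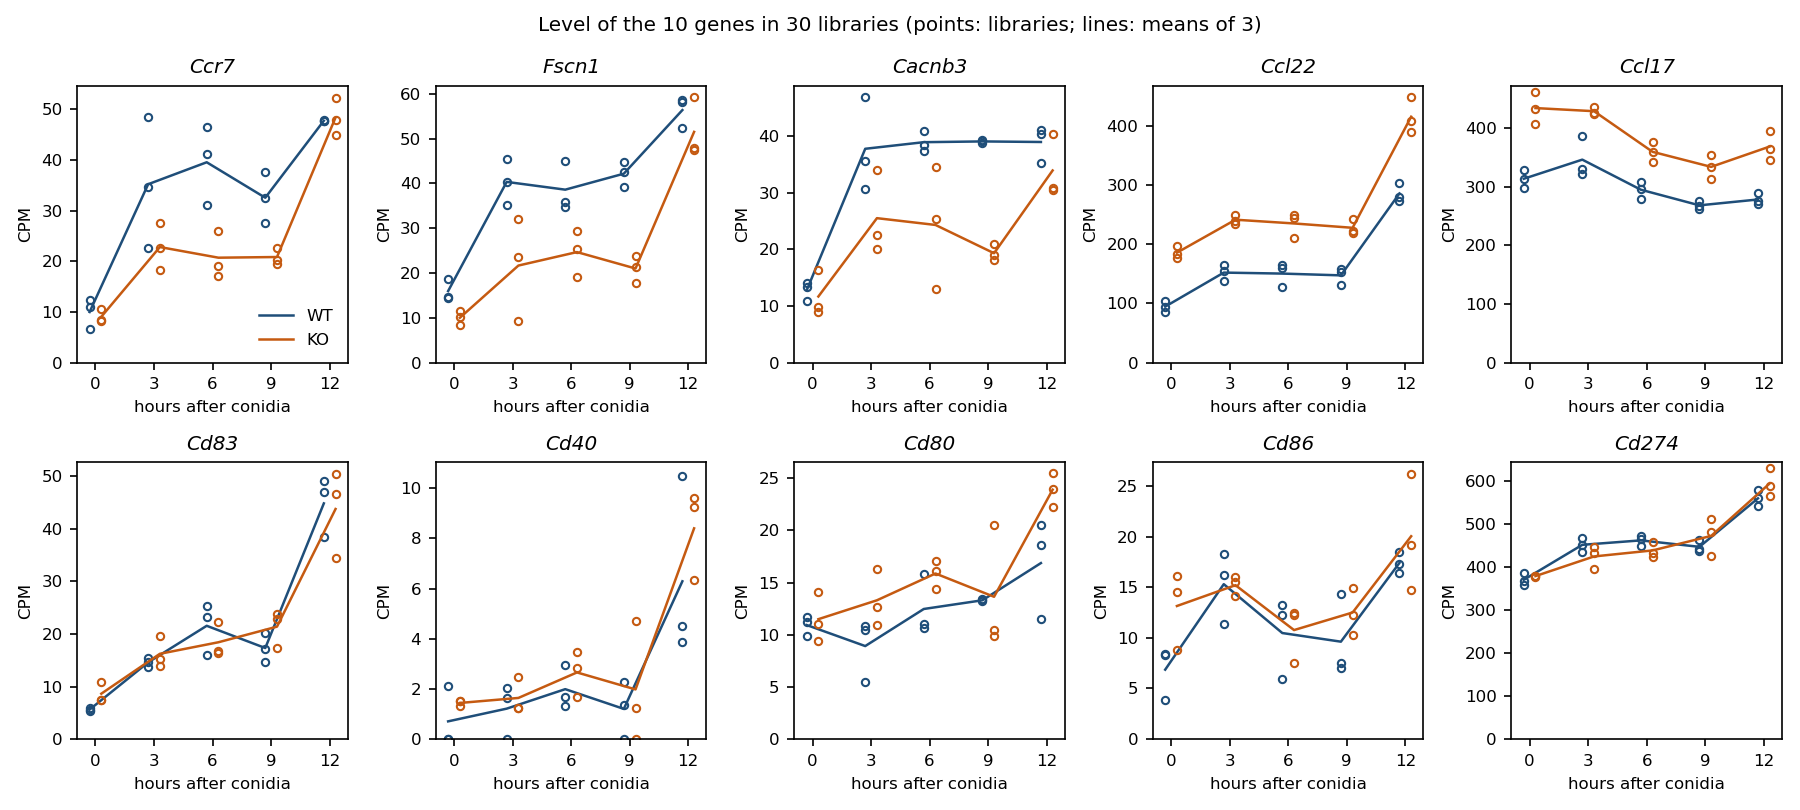
Level of each gene in CPM (vertical axis from 0, a scale of its own for each gene) against hours after conidia, with 1 point per library, lines through the means of 3 libraries, WT in blue and KO in orange. Ccr7, Fscn1 and Cacnb3 rise by 3 h, with KO below WT at 3 to 9 h and near it at 12 h for Ccr7 and Fscn1, while the KO points of Ccl22 and Ccl17 lie above the WT points at every time.

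In WT, 6 of the 10 genes passed the test (adjusted p under 0.05 over 12393 genes) at 3 h, all of them higher than at 0 h: Ccr7, Fscn1, Cacnb3, Ccl22, Cd83 and Cd274. Of all genes tested, 1.02% were called at that time. The median log2 change of the 10 genes was 0.93, against -8.57e-05 over all genes. The same 6 were higher at 6 h, when 5.96% of all genes were called. At 9 h these 6 were higher and Ccl17 was lower, against 10.4% of all genes. At 12 h 8 genes were higher (18.1% of all genes called in either direction), Cd40 and Cd86 having joined, and the median change of the 10 was 1.6. Without Cd40, whose passage through the filter depended on 12 h, 7 of the other 9 were called.

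In KO, 5 genes were called at 3 h (Ccr7, Fscn1, Cacnb3, Ccl22 and Cd83, all higher) against 1.22% of all genes. That count fell to between 1 and 3 when any 1 of the 6 KO libraries of 0 and 3 h was left out. At 6 h 6 genes were higher, Cd274 having joined, and Ccl17 was lower (5.91% of all genes). The count of 7 at 6 h fell to 4 without KO 0 h replicate 1, to 3 without KO 0 h replicate 2 and to 2 without KO 6 h replicate 2. At 9 h Ccr7, Fscn1, Ccl22, Cd83 and Cd274 were higher and Ccl17 lower (10.9%). At 12 h 8 genes were higher and Ccl17 was lower (14.7%), with Cd80 and Cd40 called and Cd86 not. Without Cd40 this was 8 of the other 9 in either direction.

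**Figure D2:**
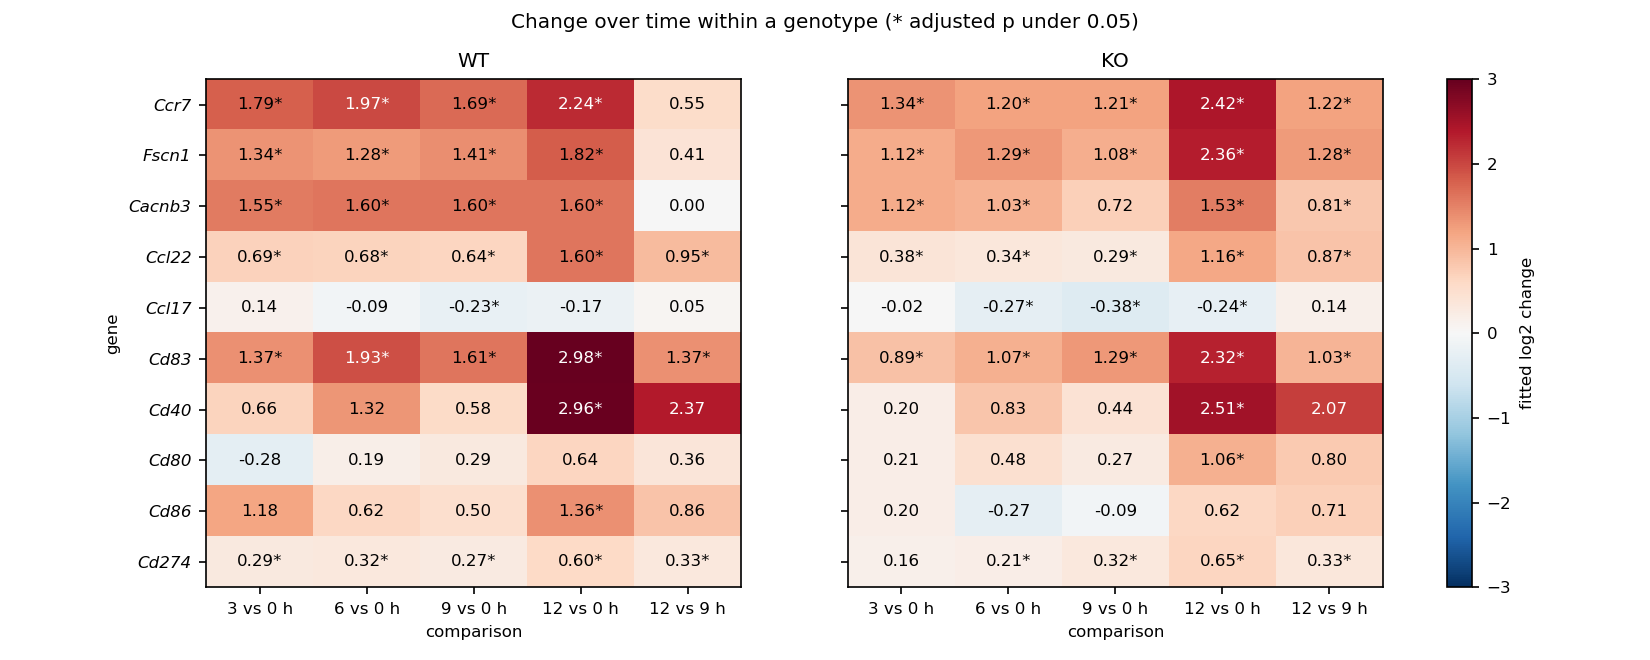
Fitted log2 change of each gene (rows) in WT (left) and KO (right) for 3, 6, 9 and 12 h against 0 h and for 12 h against 9 h (columns), coloured from blue (lower) through white to red (higher), with an asterisk where the adjusted p is under 0.05. Ccl17 is the single gene with called decreases, and the 12 h values of Cd40, which passed the count filter through 12 h, are no result.

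The lymph node homing receptor gene Ccr7 rose in both genotypes. In WT it stood at 12.4, 10.9 and 6.64 CPM at 0 h, at 22.6, 34.6 and 48.4 CPM at 3 h, and at 47.6, 47.7 and 47.9 CPM at 12 h. The libraries of 3 h were all above those of 0 h but differed widely among themselves, whereas those of 12 h were nearly equal. The fitted rise was 3.46-fold at 3 h (log2 1.79 ± 0.244, adjusted p = 6.19e-05) and 4.73-fold at 12 h (2.24 ± 0.231, adjusted p = 4.14e-08). With only the WT libraries of 0 and 3 h in the fit, the 3 h call was lost (adjusted p = 0.0592). In KO, Ccr7 had 10.5, 8.24 and 8.39 CPM at 0 h, at 18.3, 22.6 and 27.5 CPM at 3 h, and at 19.5, 20.3 and 22.7 CPM at 9 h, then at 52.3, 47.8 and 45.0 CPM at 12 h. The KO course was thus flat from 3 to 9 h and rose to the WT level at the last time. Its KO changes were 2.53-fold at 3 h (adjusted p = 0.00451) and 5.37-fold at 12 h (log2 2.42 ± 0.242, adjusted p = 2.47e-08). The ligands of the receptor were near absent from these cultures: Ccl19 had 9 counts over all libraries and Ccl21a had 3.

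Fscn1, the actin-bundling gene, followed the same course. WT libraries held 14.5, 14.7 and 18.7 CPM at 0 h, 40.4, 35.1 and 45.5 CPM at 3 h, and 52.3, 58.2 and 58.6 CPM at 12 h. All WT libraries of 3 h or later lay above those of 0 h. The rise was 2.54-fold at 3 h (log2 1.34 ± 0.241, adjusted p = 0.00209) and 3.53-fold at 12 h (1.82 ± 0.229, adjusted p = 1.26e-06). In KO, Fscn1 had 11.5, 10.1 and 8.39 CPM at 0 h, 9.38, 23.6 and 32.0 CPM at 3 h, and 47.5, 47.8 and 59.2 CPM at 12 h. One KO library of 3 h, replicate 1, was within the range of 0 h, and the 3 h call (adjusted p = 0.0397) was lost without any 1 of KO 0 h replicates 1, 2 or 3 or KO 3 h replicates 2 or 3. That call was also lost without a count filter and with only the groups compared. At 12 h the KO change was 5.13-fold (log2 2.36 ± 0.255, adjusted p = 9.83e-08). Its relatives Fscn2 and Fscn3 had 25 and 14 counts over all libraries.

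Of the 10 genes, Cacnb3 had the largest share of its WT 12 h change present at 3 h, an order that was not tested. In WT it went from 14.1, 10.9 and 13.3 CPM at 0 h to 30.7, 35.7 and 47.0 CPM at 3 h, and it stood at 41.2, 35.3 and 40.5 CPM at 12 h. The fitted log2 change was 1.55 ± 0.252 at 3 h (adjusted p = 0.000593) and 1.60 ± 0.244 at 12 h (adjusted p = 2.22e-05), so that 96.8% of the 12 h change on the log2 scale was present at 3 h. For Ccr7 that share was 79.9% and for Fscn1 73.8%, against 42.9% for Ccl22, 45.9% for Cd83 and 48.0% for Cd274. For Cd86 it was 86.4%, but the 3 h change of Cd86 was not called (log2 1.18 ± 0.336, edgeR, adjusted p = 0.105). The mean of Cd86 in WT went from 15.3 CPM at 3 h back to 9.61 CPM at 9 h. In KO the shares were 73.0% for Cacnb3, 55.3% for Ccr7 and 47.5% for Fscn1. The KO libraries of Cacnb3 held 20.9, 18.1 and 19.0 CPM at 9 h and 40.5, 30.6 and 30.8 CPM at 12 h, and the change from 0 h was not called at 9 h (log2 0.72 ± 0.273, adjusted p = 0.0957). Its KO calls, with adjusted p = 0.0296 at 3 h and adjusted p = 0.0214 at 6 h, were each lost without KO 0 h replicate 1 or 2. The 3 h call was also lost without KO 3 h replicate 2 or 3, and the 6 h call without KO 6 h replicate 1 or 2. Both were lost with only the groups compared, and the 3 h call without a count filter. Of the other beta subunit genes, Cacnb1 stood between group means of 3.19 and 9.91 CPM and Cacnb4 between 1.16 and 4.54 CPM, and neither passed the test in any comparison. Cacnb2 had 204 counts over all libraries and did not pass the count filter.

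The chemokine genes Ccl22 and Ccl17 lie on mouse chromosome 8 in the same orientation (GRCm38, GENCODE M21): Ccl22 at 94745590 to 94751699 and Ccl17 at 94810453 to 94812036, both on the plus strand. The gap between them is 58.8 kilobases and holds Cx3cl1 at 94772009 to 94782427. Their upstream sequences are shown because these neighbours moved apart during the challenge, that of Fscn1 because it moved with Ccr7, and that of Cd80 because it alone held a motif match. They come from a RefSeq promoter table on GRCm38.p6 with windows of 300 bases, 250 before a transcript start and 50 after it, in which 6 of the 10 genes had 7 windows. Ccr7, Cd83, Cd40 and Cd86 had none there. Bases that lie in a GENCODE exon are left out. Each is read 5′ to 3′ on the plus strand, and capitals mark a match to the AP-1 motif.
Ccl22, chr8:94745434-94745589: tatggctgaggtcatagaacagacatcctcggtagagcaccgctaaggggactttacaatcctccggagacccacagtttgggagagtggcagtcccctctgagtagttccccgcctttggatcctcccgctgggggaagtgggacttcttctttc
Ccl17, chr8:94810203-94810452: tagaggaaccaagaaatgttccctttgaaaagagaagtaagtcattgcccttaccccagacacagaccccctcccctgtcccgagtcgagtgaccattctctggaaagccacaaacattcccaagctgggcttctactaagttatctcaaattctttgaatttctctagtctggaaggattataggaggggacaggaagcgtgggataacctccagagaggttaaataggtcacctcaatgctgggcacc
Fscn1, chr5:142960105-142960342: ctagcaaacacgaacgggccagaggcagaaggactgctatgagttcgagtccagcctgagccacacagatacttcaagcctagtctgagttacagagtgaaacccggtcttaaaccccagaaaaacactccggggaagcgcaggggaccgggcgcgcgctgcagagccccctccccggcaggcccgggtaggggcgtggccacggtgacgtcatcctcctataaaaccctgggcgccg
Cd80, chr16:38458683-38458932: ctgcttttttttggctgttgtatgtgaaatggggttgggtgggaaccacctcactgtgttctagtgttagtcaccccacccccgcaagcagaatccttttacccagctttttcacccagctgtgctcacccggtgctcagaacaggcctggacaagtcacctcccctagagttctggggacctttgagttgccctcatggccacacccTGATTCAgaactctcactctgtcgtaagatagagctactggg
The AP-1 motif was searched as TGANTCA, which reads alike on both strands, and the NF-kappaB motif by its kappaB consensus on both strands, without overlap between the 2 in these windows. The AP-1 motif was found once, 42 bases before the Cd80 start (position 38458891 to 38458897 of chromosome 16), and in 7.81% of all 32851 windows. The kappaB consensus was found in none of the 7 windows, and in 4.51% of all windows. A match is a description of letters, and its absence says only that those letters are not in these windows.

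Ccl22 rose in both genotypes in 2 steps. WT libraries had 85.1, 104 and 94.6 CPM at 0 h, 137, 164 and 155 CPM at 3 h, 158, 131 and 153 CPM at 9 h, and 280, 273 and 304 CPM at 12 h. The levels of 3, 6 and 9 h overlapped one another, and those of 12 h were above all earlier ones. The change from 0 h was 1.61-fold at 3 h (log2 0.69 ± 0.0975, adjusted p = 0.000106) and 3.03-fold at 12 h (1.60 ± 0.0953, adjusted p = 8.63e-13). KO libraries started higher, at 177, 183 and 197 CPM, and reached 408, 389 and 449 CPM at 12 h, a 2.23-fold rise (log2 1.16 ± 0.0918, adjusted p = 2.64e-10). The KO rises at 3, 6 and 9 h were 1.30-, 1.26- and 1.22-fold (adjusted p = 0.0353, 0.0272 and 0.0386), and each of these calls was lost when KO 0 h replicate 1 or KO 0 h replicate 2 was left out.

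Ccl17 moved little. WT libraries had 329, 298 and 314 CPM at 0 h, 331, 386 and 322 CPM at 3 h, 267, 276 and 262 CPM at 9 h, and 276, 270 and 289 CPM at 12 h. It fell by 0.23 ± 0.065 on the log2 scale at 9 h in WT (adjusted p = 0.0234), a call that was lost without WT 0 h replicate 1 or 3 or WT 9 h replicate 1 or 3. In KO it went from 408, 462 and 433 CPM at 0 h to 334, 314 and 354 CPM at 9 h, and it fell by 0.38 ± 0.0647 (adjusted p = 0.000148). The KO decreases at 6 h (0.27 ± 0.0649 lower, adjusted p = 0.00923) and 12 h (0.24 ± 0.0646 lower, adjusted p = 0.0118) were lost without KO 0 h replicate 2, and also without KO 6 h replicate 2 and KO 12 h replicate 1, respectively. The 12 h decrease was also lost with only the groups compared. The ratio of Ccl22 to Ccl17 counts within a library, which does not depend on scaling, was 0.302 ± 0.0447 (SD, n = 3) in WT at 0 h, 0.55 ± 0.0656 at 9 h and 1.03 ± 0.0224 at 12 h. In KO it was 0.429 ± 0.0293 at 0 h, 0.684 ± 0.0773 at 9 h and 1.13 ± 0.0575 at 12 h. Ccl22 thus went from less than Ccl17 to about the same number of counts, on the scale of counts per gene and not per length. Cx3cl1, which lies between them, had group means of 6.63 to 10.4 CPM and passed the test in no comparison, and their receptor Ccr4 had 27 counts over all libraries.

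**Figure D3:**
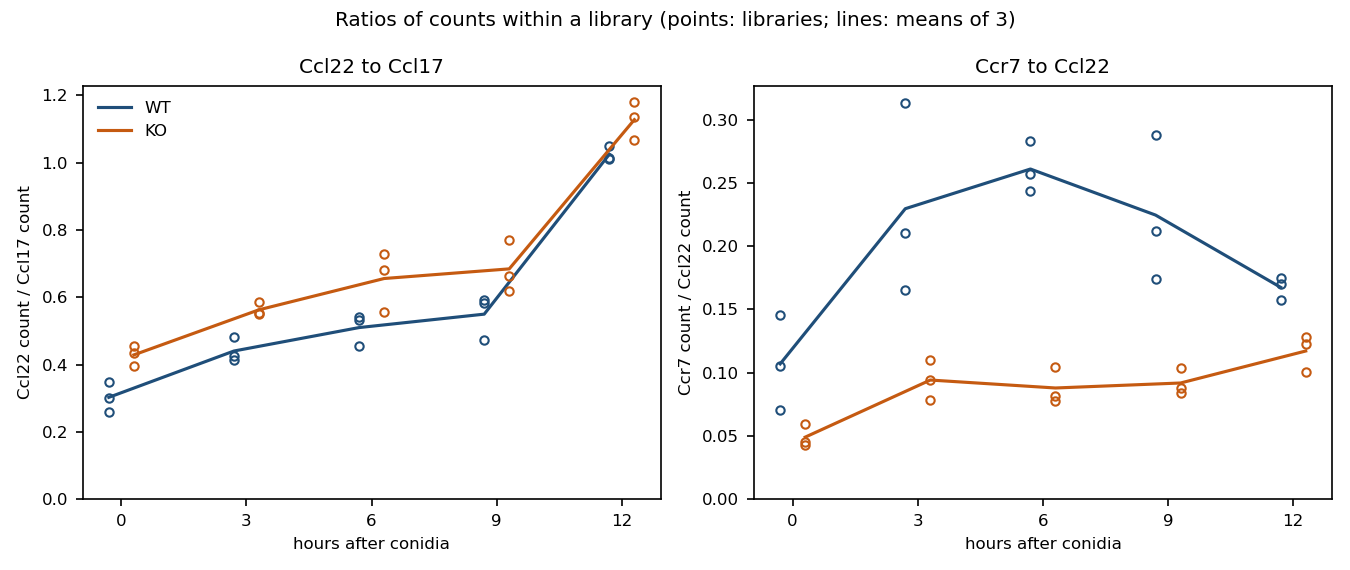
Ratio of counts within a library against hours after conidia, for Ccl22 to Ccl17 (left) and Ccr7 to Ccl22 (right), with 1 point per library, lines through the means of 3, WT in blue and KO in orange. The Ccl22 to Ccl17 ratio reaches 1.01 to 1.05 in WT and 1.07 to 1.18 in KO at 12 h, and the Ccr7 to Ccl22 ratio is lower in KO at each time.

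Cd83 had the steepest course of the surface genes that were well counted. In WT it stood at 6.0, 5.45 and 5.39 CPM at 0 h, 15.4, 14.6 and 13.8 CPM at 3 h, and 47.1, 38.4 and 49.1 CPM at 12 h. Its libraries of 3 h were all above those of 0 h, and those of 12 h were above all others. The change was 2.58-fold at 3 h (log2 1.37 ± 0.248, adjusted p = 0.00216) and 7.89-fold at 12 h (2.98 ± 0.214, adjusted p = 4.23e-11). In KO, Cd83 had 7.51, 10.9 and 7.51 CPM at 0 h and 34.4, 46.6 and 50.4 CPM at 12 h, a 4.99-fold rise (log2 2.32 ± 0.205, adjusted p = 2.41e-09). The KO call at 3 h (1.85-fold, adjusted p = 0.0454) was lost with DESeq2, without a count filter, with the replicate number as a block and with only the groups compared. It was also lost without KO 0 h replicate 1 or 3 or any 1 of the KO 3 h replicates.

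The costimulatory receptor Cd40 was detected mainly at 12 h. WT libraries had 6, 0 and 0 counts at 0 h and 14, 34 and 11 counts at 12 h. KO libraries had 3, 4 and 3 counts at 0 h and 22, 29 and 13 at 12 h. The libraries of 12 h were above those of 0 h in both genotypes. Since the 12 h libraries are what carried Cd40 through the count filter, its 12 h calls are no result, and its fold change has no stable value: the fitted log2 change in WT ran from 2.37 to 7.02 over the alternatives. Before 12 h no change of Cd40 was detectable at this depth.

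The Cd28 ligands Cd80 and Cd86 differed in which genotype passed the test. Cd80 in KO went from 11, 9.37 and 14.1 CPM at 0 h to 22.2, 25.5 and 24.0 CPM at 12 h without overlap (log2 1.06 ± 0.255, adjusted p = 0.00441). Its WT libraries had 9.89, 11.7 and 11.2 CPM at 0 h and 20.5, 18.6 and 11.5 CPM at 12 h, and the third 12 h library was within the range of 0 h (log2 0.64 ± 0.256, adjusted p = 0.082). Without WT 12 h replicate 3 the WT change of Cd80 was called (adjusted p = 0.0281). Cd86 in WT went from 3.88, 8.39 and 8.3 CPM at 0 h to 18.5, 17.3 and 16.4 CPM at 12 h (log2 1.36 ± 0.32, adjusted p = 0.00313). In KO, Cd86 stood at 14.5, 16.1 and 8.83 CPM at 0 h and 19.2, 26.2 and 14.7 CPM at 12 h, which overlap (log2 0.62 ± 0.296, adjusted p = 0.182). The difference between genotypes in these changes was 0.42 ± 0.364 for Cd80 and -0.75 ± 0.438 for Cd86 (KO minus WT at 12 h, log2), and neither gene passed the interaction test (adjusted p = 0.889 and 0.735).

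Cd274, the PD-1 ligand, was abundant before challenge and rose by a small and precise amount. WT libraries held 357, 367 and 386 CPM at 0 h, 435, 468 and 451 CPM at 3 h, and 559, 578 and 541 CPM at 12 h. Libraries of 3 h all lay above those of 0 h and below those of 12 h. The rise was 1.22-fold at 3 h (log2 0.29 ± 0.0569, adjusted p = 0.00618), a call lost without WT 0 h replicate 1 or without a count filter, and 1.51-fold at 12 h (0.60 ± 0.0565, adjusted p = 7.96e-09). KO libraries held 379, 380 and 377 CPM at 0 h and 629, 565 and 588 CPM at 12 h, a 1.57-fold rise (0.65 ± 0.0568, adjusted p = 1.92e-09). The other PD-1 ligand, Pdcd1lg2, had 30.2 ± 4.53 CPM (SD, n = 3) at 0 h and 40.0 ± 5.28 CPM at 12 h in WT and was not called (log2 0.40, adjusted p = 0.061).

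The step from 9 to 12 h was tested on its own. In WT, Ccl22 (log2 0.95 ± 0.0915), Cd83 (1.37 ± 0.177) and Cd274 (0.33 ± 0.0561) were called higher, against 10.5% of all genes. The WT change of Cacnb3 in that step was -0.0028 ± 0.21, and those of Ccr7 (0.55 ± 0.193, adjusted p = 0.0694) and Fscn1 (0.41 ± 0.2, adjusted p = 0.211) did not pass, although for both the 12 h libraries lay above those of 9 h. With only the groups compared both were called (over the alternatives the adjusted p ran from 0.0208 to 0.247 for Ccr7 and from 0.0249 to 0.518 for Fscn1), and Ccr7 also with scaling by protein-coding genes. In KO 6 genes were called higher, against 4.49% of all genes: Ccr7 (1.22 ± 0.209), Fscn1 (1.28 ± 0.223), Cacnb3 (0.81 ± 0.236), Ccl22 (0.87 ± 0.0903), Cd83 (1.03 ± 0.178) and Cd274 (0.33 ± 0.0563). The KO call of Cacnb3 (adjusted p = 0.0466) was lost without any 1 of the 6 KO libraries of 9 and 12 h, without a count filter and with the replicate number as a block. That of Cd274 was lost with only the groups compared in the fit (adjusted p = 0.0683). The difference of this step between genotypes was not tested.

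Loss of Nlrx1 went with more Ccl22 and Ccl17 and with less Ccr7, Fscn1 and Cacnb3. Over all 5 times Ccl22 was 1.61-fold higher in KO (log2 0.69 ± 0.0416, adjusted p = 7.94e-13) and Ccl17 was 1.28-fold higher (0.36 ± 0.0291, adjusted p = 3.01e-10). Fscn1 was 1.59-fold lower (log2 -0.67 ± 0.106, adjusted p = 2.76e-05), Cacnb3 1.43-fold lower (-0.52 ± 0.108, adjusted p = 0.000714) and Ccr7 1.38-fold lower (-0.47 ± 0.103, adjusted p = 0.00129). These 5 of the 10 genes were called against 24.9% of all genes tested, and none of these 5 calls was lost under any alternative run. Cd83, Cd40, Cd80, Cd86 and Cd274 were not called over all times (adjusted p = 0.203, 0.36, 0.0585, 0.097 and 0.87). For Cd274 the difference was 0.01 ± 0.0253 on the log2 scale.

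**Figure D4:**
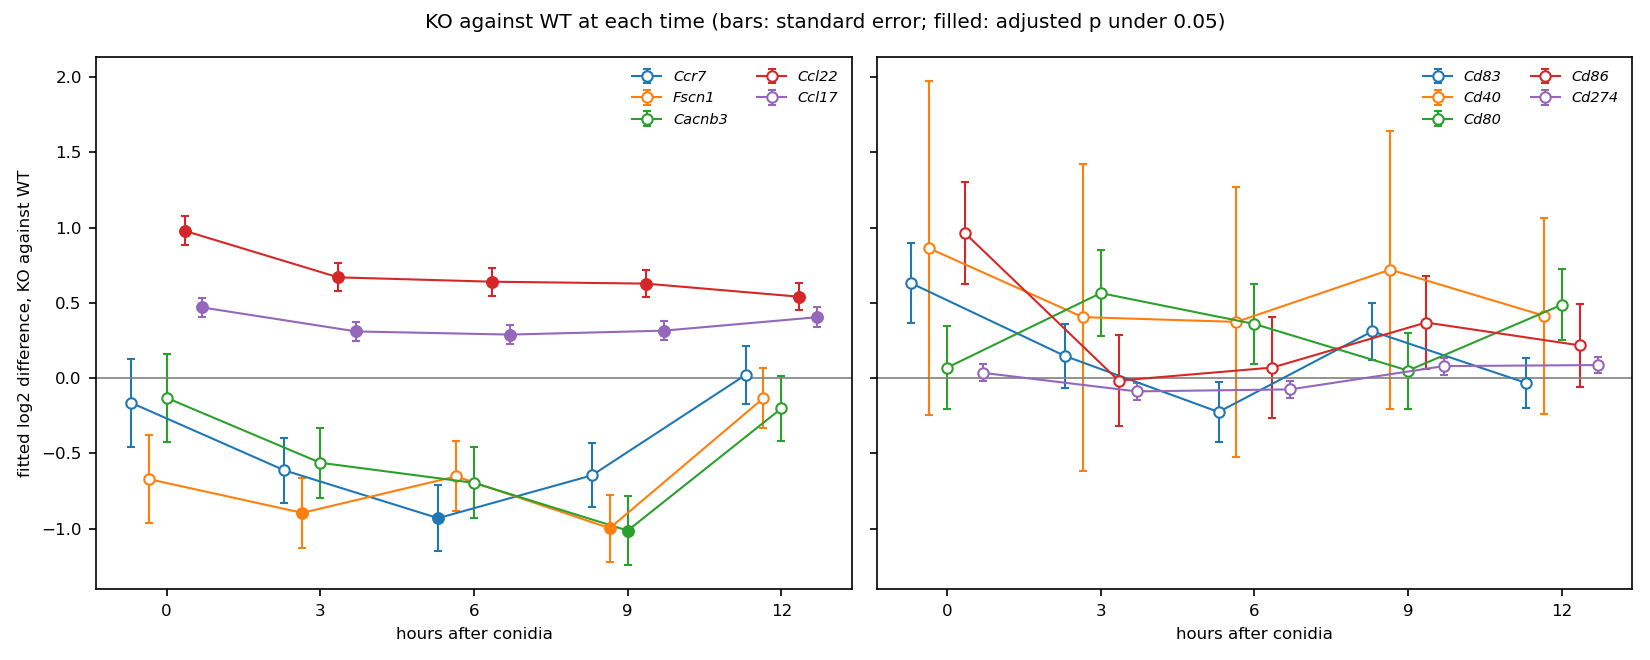
Fitted log2 difference of KO against WT (vertical axis, bars are standard errors) at each time after conidia (horizontal axis, points shifted slightly sideways), for the migration genes and chemokines (left) and the surface genes (right), with filled points where the adjusted p is under 0.05. Ccl22 and Ccl17 lie above 0 at every time with all points filled. The lowest point is at 6 h for Ccr7 and at 9 h for Fscn1 and Cacnb3, and Fscn1 lies below 0 at 0 h also.

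The chemokine difference was present before challenge. At 0 h, Ccl22 stood at 85.1 to 104 CPM in WT and 177 to 197 CPM in KO (log2 0.98 ± 0.0964, adjusted p = 1.37e-07), and Ccl17 at 298 to 329 CPM in WT and 408 to 462 CPM in KO (0.47 ± 0.0649, adjusted p = 2.31e-05). They were the only 2 of the 10 genes called at 0 h, against 5.02% of all genes. Both were also called, higher in KO, at 3 h (6.92% of all genes), 6 h (5.78%), 9 h (5.06%) and 12 h (1.9%), with differences for Ccl22 between 0.54 and 0.67 after 0 h. Without WT 6 h replicate 1 the 6 h call of Ccl17 was lost, as were its calls at 3, 6 and 9 h without a count filter. At 0 h the summed macrophage markers were also lower in KO (2210 to 2470 CPM, against 3100 to 3260 CPM in WT) and the summed dendritic cell markers were 2240 to 2300 CPM, against 2100 to 2250 CPM. The part of these markers in the result was not tested.

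The calls of the migration genes lay between 3 and 9 h, and none of them was called at 0 h. Fscn1 was already lower in KO at 0 h without overlap, at 8.39 to 11.5 CPM against 14.5 to 18.7 CPM in WT (log2 -0.67 ± 0.291, edgeR, adjusted p = 0.218). Ccr7 was called lower in KO at 6 h, with 19.0, 26.0 and 17.1 CPM in KO and 31.0, 41.1 and 46.5 CPM in WT (log2 -0.93 ± 0.221, adjusted p = 0.00954), a call lost without WT 6 h replicate 3 or KO 6 h replicate 3. Fscn1 was called lower at 3 h (-0.90 ± 0.231, adjusted p = 0.0157), a call lost without WT 3 h replicate 3 or KO 3 h replicate 1 and with only the groups compared. At 9 h Fscn1 had 23.9, 21.3 and 17.8 CPM in KO and 39.2, 42.5 and 44.8 CPM in WT (-1.0 ± 0.222, adjusted p = 0.00582). Cacnb3 at 9 h had 20.9, 18.1 and 19.0 CPM in KO and 38.9, 39.3 and 39.1 CPM in WT (-1.01 ± 0.228, adjusted p = 0.00654). The groups of 9 h did not overlap for either gene. At 12 h the differences were 0.02 ± 0.191 for Ccr7, -0.13 ± 0.201 for Fscn1 and -0.20 ± 0.217 for Cacnb3, none of them called. Macrophage markers, at 1820 to 1980 CPM in KO and 2630 to 2670 CPM in WT at 9 h, moved in the same direction as these 3 genes and were lower in KO at 12 h also. Neutrophil markers were lower too, at 904 to 1020 CPM in KO and 1230 to 1350 CPM in WT at 9 h, with 5 of 8 called lower (5.06% of all genes called in either direction). The part of these markers in the result was not tested.

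No gene of the 10 passed the test of whether the response over time differed between genotypes (edgeR F test over 4 differences, 0.888% of all genes called). Before adjustment 2 of them, Ccr7 and Ccl22, were under 0.05 (adjusted p = 0.343 and 0.36 by edgeR), as were 1437 of all 12393 genes. DESeq2 called 0 of the 10. The change of Ccl22 from 0 to 12 h was smaller in KO by a fitted log2 difference of -0.44 ± 0.131, while for Ccr7 the difference was -0.77 ± 0.37 at 6 h and 0.18 ± 0.35 at 12 h. For Cd83 it was -0.86 ± 0.332 at 6 h and for Cacnb3 -0.88 ± 0.372 at 9 h. The ratio of Ccr7 to Ccl22 counts within a library was 0.107 ± 0.0376 (SD, n = 3) in WT and 0.049 ± 0.00904 in KO at 0 h. At 6 h it was 0.261 ± 0.02 in WT and 0.0878 ± 0.0144 in KO, and at 12 h 0.167 ± 0.00894 and 0.117 ± 0.0149. The ranges of WT and KO did not overlap at these 3 times.

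Likeness among the genes was measured over the 10 group means of log2 CPM and is a description, since all points share the same libraries. Ccr7 correlated most with Cacnb3 and Fscn1 (Pearson r = 0.957 each), and Cacnb3 with Fscn1 (0.937). Ccl22 correlated with Cd86 (0.848), Cd83 (0.807) and Cd80 (0.805), and less with Ccr7 (0.505) or Cacnb3 (0.292). Cd40 passed the count filter through 12 h, so its correlations, with Ccl22 (0.882) and with the genes nearest to it below, are no result. Cd83 and Cd274 had r = 0.968, and both were nearer to Ccr7 (0.879 and 0.877) than to Ccl22 (0.807 and 0.766). Ccl17 was least like the others, with r between -0.619 (Fscn1) and 0.348 (Cd86). Among 2837 genes with at least 5 CPM in some group and a range of at least 1 on the log2 scale, the genes most like Ccr7 were Rgl1 (0.96), Cacnb3 and Fscn1. Those most like Fscn1 were Ccr7, Sema7a (0.956) and Rgl1 (0.954), and those most like Cacnb3 were Ccr7, Tusc1 (0.947) and Adcy6 (0.942). For Ccl22 they were Efnb2 (0.968), Cxcl16 (0.966) and D130040H23Rik (0.966), and for Ccl17 Vcan (0.929), Car4 (0.924) and 2010005H15Rik (0.909). Cd83 was most like Sgk1 (0.982), Rgs1 (0.979) and Gem (0.974), and Cd274 most like Vegfa (0.985), Rasgef1b (0.982) and Plk2 (0.982). For Cd40 the nearest were Gm14023 (0.975), Pde4b (0.959) and Megf11 (0.944), for Cd80 Myom1 (0.938), Arl5c (0.924) and 1600020E01Rik (0.912), and for Cd86 Rnd3 (0.942), Endod1 (0.902) and Bhlhe40 (0.881).

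Of 41 other listed genes of the mature dendritic cell programme 36 were tested, and in WT at 12 h 21 rose and 1 (Socs2) fell (18.1% of all genes called), with a median log2 change of 0.79 against 0.00328 over all genes. In KO at 12 h 16 rose and none fell (14.7% of all genes called, median 0.66). At 3, 6 and 9 h 2, 10 and 12 rose and 0, 2 and 2 fell in WT (1.02%, 5.96% and 10.4% of all genes called). In KO 2, 5 and 8 rose and none fell at these times (1.22%, 5.91% and 10.9% of all genes called). Il12b, a subunit of interleukin-12, had 0, 0 and 1.66 CPM at 0 h and 12.2, 7.74 and 10.2 CPM at 12 h in WT. In KO it had no count at 0 h and 19.2, 22.3 and 15.7 CPM at 12 h. Among the others, Slco5a1 and Stat4 were at or below 1.66 CPM in every WT library of 0 h and had 5.26 to 6.92 and 3.71 to 9.13 CPM at 12 h, and Eno2 went from 0 to 1.68 CPM to 4.5 to 6.64 CPM. In KO at 12 h Stat4 had 11.3, 1.28 and 4.89 CPM. Like Cd40, Stat4 passed the count filter through the libraries of 12 h, so its WT call, among the 21 above, is no result. Relb, an NF-kappaB subunit tied to dendritic cell maturation, rose by 1.00 on the log2 scale in WT (adjusted p = 3.3e-06) and by 1.02 in KO at 12 h. Relb was lower in KO over all times (-0.27 ± 0.0626, edgeR, adjusted p = 0.00216). Of the single times it was called lower only at 9 h (-0.48 ± 0.134, edgeR, adjusted p = 0.0311). Over all times 5 of the 36 were higher in KO and 5 lower, a share near the 24.9% of all genes called. Among them were Aldh1a2 (1.37 ± 0.0545, adjusted p = 1.48e-16), the retinoic acid synthesis enzyme, and Apol7c (-0.89 ± 0.173, adjusted p = 0.00037).

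Of 44 listed cytoskeleton and motility genes 42 were tested, and in WT at 12 h 3 rose and 19 fell (18.1% of all genes called), with a median log2 change of -0.20. In KO 4 rose and 14 fell (14.7% of all genes called, median -0.11). The member with the largest rise in WT was Marcksl1, an actin-linked protein kinase C substrate (1.11 ± 0.091, adjusted p = 5.01e-10). The integrin genes Itgam (-0.93 ± 0.252) and Itgal (-0.92 ± 0.0985) fell most at that time. Itgam did not fall steadily: WT libraries held 624 to 1030 CPM at 0 h, 1170 to 2020 CPM at 3 h and 359 to 548 CPM at 12 h. In KO, Itgam had 1540 to 1860 CPM at 6 h and 347 to 906 CPM at 9 h. Actg1 fell by 0.60 ± 0.16. KO against WT over all times, 15 of the 42 were lower and 5 higher (24.9% of all genes called), with Cnn2 (-0.36 ± 0.061) and Myo1e (-0.29 ± 0.0258) among the lower ones. Itgam, Itgal and Itgb2 are also expressed by macrophages and neutrophils. In WT the summed macrophage markers were at 3170 CPM at 0 h and 2340 CPM at 12 h. The summed neutrophil markers went from 1240 CPM at 0 h up to 1590 CPM at 6 h and down to 1120 CPM at 12 h. The part of these cells was not tested.

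Few chemokine partners were measurable. Of 13 listed, 6 were tested, and Cxcr4 rose by 1.12 ± 0.236 in WT at 12 h (adjusted p = 0.00106), with Ccr1 higher by 0.14 ± 0.0491. Over all times Ccr2 was higher in KO by 0.27 ± 0.0935 and Ccr1 lower by 0.11 ± 0.0223. Of 21 other costimulatory and coinhibitory genes 17 were tested, of which 4 rose and none fell in WT at 12 h (18.1% of all genes called), and 5 rose and 2 fell in KO (14.7%). Tnfsf9 (4-1BB ligand, 2.23 ± 0.577), Cd200 (1.73 ± 0.202) and Tnfsf4 (OX40 ligand, 1.41 ± 0.243) rose in WT. Over all times 7 of the 17 were higher in KO and 3 lower (24.9% of all genes called), among them Tnfsf15 (1.22 ± 0.122) and Nectin2 (0.70 ± 0.117). Icosl had group means between 10.2 and 16.1 CPM and was not called at 12 h in either genotype.

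The authors' deposited tables of 13 comparisons list only genes under an adjusted p of 0.05. Ccl22 stood in 10 of them, Ccr7, Cacnb3 and Fscn1 in 6 each, Cd83 in 4, Cd274 in 2, and Cd40, Cd80 and Cd86 in 1 each. Ccl17 stood in none. The smallest change listed for any of the 10 genes, in either direction, was 0.54 on the log2 scale (Ccl22, WT against KO at 12 h). Ccl17 differed by at most 0.47 in the comparisons run here. Whether those tables also carry a limit on fold change was not tested, so absence from them is not a finding of no difference. In the authors' deposited table of WT at 3 h, which lists 33 genes, Ccr7 (log2 fold change 1.81), Cacnb3 (1.55), Fscn1 (1.34) and Ccl22 (0.68) appear, and Cd83 and Cd274 do not. The authors' deposited tables of WT against KO list Ccl22 at every time, with log2 fold changes from -0.54 to -0.98 (lower in WT), and Cacnb3 (1.02) and Fscn1 (1.00) at 9 h.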

How the data were processed

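RNA of 30 libraries (3 in each of 10 groups of genotype and time, grouped by their titles) was made into stranded mRNA libraries and sequenced on a NextSeq, per the labels' protocols. The deposited gene table gives a whole-number count for each Ensembl identifier, and these were taken as the authors' raw counts. Trimmomatic 0.35, HISAT2, StringTie and DESeq2 and the build GRCm38 are named in the submitters' processing notes, while the annotation release, strand setting and way of counting are named nowhere in the labels or headers. Counts taken from StringTie can be rounded estimates. The 13 tables of comparisons give, per the file headers, log2 fold changes that the authors computed. Their p-values and adjusted p-values are also the authors', per the file headers. The 78 columns of normalized per-sample values in those tables were not used.

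Names and positions came from GENCODE M21, which held 54495 of 54532 identifiers. Genes were kept with filterByExpr (minimum count 10), leaving 12393 genes with 98.66% of the counts, and all 10 genes passed. Libraries were scaled by TMM, and edgeR 4.0.16 in R 4.3.3 fitted 1 coefficient per group to all 30 libraries (robust quasi-likelihood, 20 residual degrees of freedom). P-values are two-sided and Benjamini-Hochberg adjusted over the genes kept, and the threshold was 0.05. Correlations used log2 CPM with a prior count of 2. The fit was tested on simulated data. No 2 replicates agreed within sampling noise. Alternatives were DESeq2 1.42.0, RLE factors, scaling by protein-coding genes, no count filter, the replicate number as a block, only the groups compared, and leaving out each library.

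The 10 genes and the gene lists were chosen with earlier results of these data known. From each list at most 4 called genes with the largest change in WT at 12 h (at least 5 CPM) and 2 over all times in KO against WT were named, with a set of genes named whatever their values, and 3 genes most like each of the 10. Markers of conventional and plasmacytoid dendritic cells, macrophages, neutrophils, B cells, T or NK cells, mast cells or basophils, eosinophils and erythroid cells were summed per library.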

Additional observations from a re-analysis of the deposited data

How the results depend on the processing

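Of 160 pairs of gene and comparison 82 were called, of which 58 kept their call under every alternative run and 24 lost it under at least 1, while 12 uncalled pairs were called under at least 1. None of the 82 called values changed sign, and 24 uncalled values did. The numbers of the 10 genes called changed by over 1.5 times in 3 comparisons. For KO at 3 h (5 genes) it was 1 without a count filter, 2 with only the groups compared and 1 to 3 when single libraries were left out. For KO at 6 h (7 genes) it was 2 to 6 when single libraries were left out. For WT 12 h against 9 h (3 genes) it was 5 with scaling by protein-coding genes and 5 with only the groups compared. The cause was not tested. With the replicate number as a block the counts differed by at most 1: 4 for KO at 3 h, 4 for WT and 5 for KO at 12 h against 9 h, and as in the main fit elsewhere (6, 6, 7 and 8 in WT and 7, 6 and 9 in KO against 0 h). Whether the numbers pair the samples is not given by the labels. Same-numbered libraries had correlations of their deviations between -0.213 and 0.276 (median 0.0258), and differently numbered ones between -0.306 and 0.293 (median -0.0112). Of 30 libraries, 14 correlated best with their own number. With 3 libraries per group these values cannot decide whether the samples are paired.

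Over all genes, leaving out the count filter lowered the number called from 126, 739, 1286 and 2245 to 58, 367, 743 and 1486 in WT at 3, 6, 9 and 12 h. In KO it went from 151, 733, 1346 and 1823 to 60, 456, 741 and 1187. For 12 h against 9 h it went from 1305 to 832 in WT and from 557 to 285 in KO. For KO against WT it went from 622, 857, 716, 627 and 236 to 321, 451, 451, 407 and 109 at 0, 3, 6, 9 and 12 h, and for the interaction from 110 to 51. With only the groups compared it was 58 in WT at 3 h, 46, 396 and 841 in KO at 3, 6 and 9 h, 257 in KO for 12 h against 9 h, and 396, 485, 418, 276 and 91 for KO against WT. With scaling by protein-coding genes it was 445 for KO against WT at 6 h and 37 for the interaction. Leaving out single libraries gave 80 to 104 in WT at 3 h, 471 to 557 in WT at 6 h, 98 to 111 in KO at 3 h, 865 to 1046 for WT 12 h against 9 h, 365 to 552 and 139 to 191 for KO against WT at 9 and 12 h, and 56 to 128 for the interaction. Depth limits Cd40 most, with 0 to 34 counts per library.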

Other observations

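Antigen uptake and presentation are functions that maturation is known to alter. Of 13 listed genes of MHC class II presentation 11 were tested, and in WT at 12 h 2 rose and 6 fell (18.1% of all genes called), with a median log2 change of -0.26 against 0.00328 over all genes. The invariant chain gene Cd74 fell by 0.57 ± 0.143 (edgeR, adjusted p = 0.00701). Its WT libraries had 1290, 1390 and 1370 CPM at 0 h and 1070, 625 and 1030 CPM at 12 h, and the size of the fall without the lowest was not tested. H2-DMb1 fell by 0.46 ± 0.0898 and H2-DMa by 0.43 ± 0.103, which load peptides onto class II, while the lysosomal protease gene Ctss rose by 0.31 ± 0.0434. In KO at 12 h 2 rose and 3 fell (14.7% of all genes called). Over all times 6 of the 11 were higher in KO and 2 lower (24.9% of all genes called), among them Ciita, the class II transactivator (0.44 ± 0.128, adjusted p = 0.0116), and March1, the ubiquitin ligase that removes class II and Cd86 from the cell surface (0.32 ± 0.0452, adjusted p = 6.45e-06). Of 17 listed uptake receptors 14 were tested, and in WT at 12 h 2 rose and 3 fell (18.1% of all genes called). Ly75 (DEC-205) rose by 1.21 ± 0.222 and Axl fell by 0.75 ± 0.0592, with Stab1 (-0.43 ± 0.102) and Fcgr1 (-0.40 ± 0.112) also lower. Over all times Marco (0.90 ± 0.218) and Ly75 (0.48 ± 0.0987) were higher in KO.

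Of 15 listed genes of NF-kappaB and Cd40 signalling and dendritic cell transcription factors, all tested, 6 rose and 2 fell in WT at 12 h (18.1% of all genes called), and 8 rose and none fell in KO (14.7%). Rel rose by 1.48 ± 0.0856 and the inhibitor gene Nfkbia by 1.39 ± 0.0769 in WT. Nfkb2 had group means of 68.0 CPM at 0 h and 108 CPM at 12 h in WT. Irf4 was higher in KO over all times by 0.53 ± 0.0422 (edgeR, adjusted p = 2.12e-10). Of 15 listed calcium channel subunit genes 7 were tested, of which 2 rose and 1 fell in WT at 12 h (18.1% of all genes called). Cacna1c rose by 1.68 ± 0.536 and Cacna1d fell by 0.78 ± 0.207, the former at low counts.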
